A study of Homo sapiens with 12 samples.

Results

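Proteins and RNAs pass between nucleus and cytoplasm through nuclear pores, and the genes described here encode the carriers, the energy switch and the channel of that traffic. They are 52 listed genes in 10 role classes: the importins of the beta family, the importin alpha adaptors, the exportins with the tRNA exportin XPOT, the genes of the Ran cycle, and 6 classes of nucleoporins. Members were chosen by gene symbol with earlier results of these data known, among them the fall of TNPO3 after the siRNA. Of the 52, 51 were found among the 34318 genes of the table. IPO4, an importin of the beta family, was not analysed here because none of its transcript rows could be matched. The values are estimated read counts summed over the transcript rows of a gene.

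The study compared 12 mRNA libraries in 4 groups of 3. All came from HEK293T, a human embryonic kidney line that carries adenoviral and SV40 sequences and takes up nucleic acids readily. In the first experiment the cells were transfected with siControl or siPOLR3A, the latter an siRNA against the catalytic subunit of RNA polymerase III, and harvested 2 days later. In the second they received 0.1% DMSO or 25 µM ML60218, an inhibitor of RNA polymerase III, for 4 hours. Both arms of the first experiment were transfected, and the second involved no siRNA. Replicates are numbered in the labels, which do not say whether they were separate cultures, so that p-values measure the spread between these libraries. A lower level can reflect fewer cells that express a gene or less RNA in each cell, which bulk RNA does not tell apart.

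Carriers of the karyopherin family bind a cargo on one side of the pore and release it on the other. Direction comes from the small GTPase RAN, kept in its GTP form inside the nucleus by the exchange factor RCC1 on chromatin and turned to its GDP form in the cytoplasm by RANGAP1 with RANBP1 and RANBP2. The pore itself is built from an outer ring, an inner ring, a central channel lined with phenylalanine-glycine repeats, a cytoplasmic face, a nuclear basket and membrane-spanning anchors. RNA polymerase III makes tRNA, and mature tRNA leaves the nucleus on XPOT.

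Libraries held between 37008325 and 49479476 estimated reads, and the members together took between 1.22% and 1.37% of the matched reads. POLR3A stood at 92.2, 93.5 and 86.8 CPM (a read count scaled to library size, with TMM factors that align the bulk of the genes) in siControl and at 19.3, 19.0 and 14.6 CPM in siPOLR3A, so the targeted transcript was low in every siPOLR3A library. Its log2 fold change was −2.36 (SE 0.108, edgeR adjusted p 1.94e-05). In ML60218 it was lower by 0.38 on the log2 scale, with no overlap between the groups. Of 11 markers of this line and of epithelium, VIM, NEFL, CDH2, NEFM, KRT18 and LIN28B had at least 23.8 TPM, a level per transcript length, in every library. The others were low: KRT8, PAX2, CDH1 and EPCAM reached at most 6.18, 5.19, 4.5 and 4.09 TPM, and KRT19 at most 0.167 TPM. The summed level of the 11 was 689 to 738 TPM in siControl, 465 to 477 in siPOLR3A, 601 to 645 in DMSO and 673 to 743 in ML60218. The 10 markers of other cell types summed to between 22.0 and 30.4 TPM, mostly COL1A1, and PTPRC was listed at 0 in every library. The part of these marker shifts in the results below was not tested.

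Per transcript length, the members differed widely in level. RAN had the highest mean over all libraries, 668 TPM, followed by its partner RANBP1 with 570 TPM. The importin alpha KPNA2 had 327 TPM, the exportin CSE1L, which returns importin alpha to the cytoplasm, 296 TPM, and KPNB1, the beta subunit that importin alpha works with, 220 TPM. At the other end were NUP214 with 12.95 TPM and KPNA5 with 10.8 TPM. KPNA4 and NUP88 were read from an incomplete set of transcripts: the unmatched rows that lie next to theirs would add 241% and 223% to their reads, against 81.6% for KPNA5, 58.9% for NUP214 and 39.6% or less for every other member. Levels of these 4 genes are therefore lower limits.

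The first comparison asked which members differed 2 days after the siRNA against POLR3A. All 51 passed the filter on low counts, and the edgeR quasi-likelihood test with Benjamini-Hochberg adjustment over 15404 genes called 22 higher and 18 lower at an adjusted p under 0.05. Among all genes tested 27.4% were called higher and 29.2% lower. The falls reached further than the rises: 7 members fell by at least 0.5 on the log2 scale, a size that 8.74% of all genes tested reached in that direction. No member rose that far, against 1194 of the 15404 genes. The 7 were TNPO3, NUP54, RCC1, RANBP2, KPNB1, IPO8 and XPO1, which together cover import, export, the Ran switch and the channel. The median change of the members was 0.02, and that of all genes tested 0.01. Scaling by the upper quartile gave 26 higher and 12 lower calls, and scaling by total counts gave 25 and 13.

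**Figure D1:**
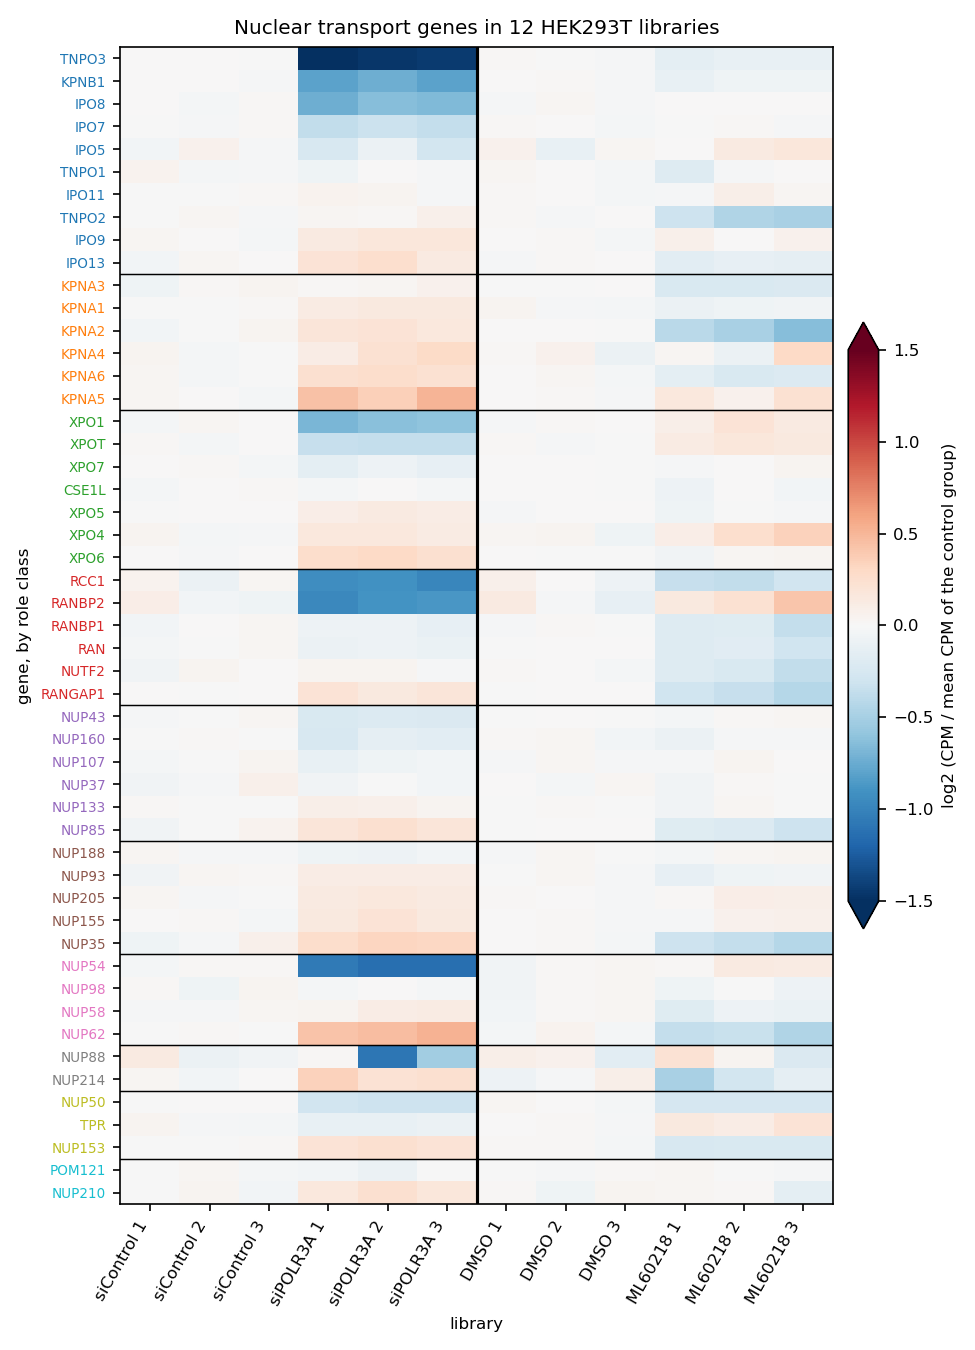
Each row is a gene and each column a library; colour gives the log2 ratio of its CPM to the mean CPM of its own control group, red for higher and blue for lower, with the scale ending at 1.5 in either direction. Row labels are coloured by role class and black lines part the classes. TNPO3, NUP54, RCC1, RANBP2 and KPNB1 form dark blue blocks in all 3 siPOLR3A libraries, while the ML60218 columns are paler.

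Among the importins of the beta family 5 of 10 fell and 2 rose. TNPO3, the carrier that brings serine-arginine-rich splicing factors into the nucleus, had the largest fall of all members. This fall was known when the members were listed, so its test here is a description and no independent support. The gene lies on chromosome 7, 128954180 to 129055173, minus strand (GENCODE 29 on GRCh38). It measured 175, 175 and 173 CPM in siControl and 62.1, 63.2 and 64.6 CPM in siPOLR3A. The groups lay far apart and each was tight, a log2 fold change of −1.46 (SE 0.03, edgeR adjusted p 5.31e-14), or 63.7% less. Under the alternatives its change stayed between −1.48 and −1.40.

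KPNB1 (chromosome 17, 47649476 to 47685505, plus strand) carries cargo bound to importin alpha and also acts alone. It went from 793, 790.5 and 781 CPM to 453, 473 and 452 CPM, a log2 fold change of −0.78 (SE 0.02, edgeR adjusted p 4.31e-12). IPO8 was at 208, 202 and 209.9 CPM in siControl and at 124, 133 and 131 CPM in siPOLR3A, a change of −0.68. IPO7, the closest relative of IPO8 in this list and a carrier of ribosomal proteins and linker histone, fell by 0.35. IPO5 fell by 0.20, but its adjusted p of 0.0283 (edgeR) rose past the threshold without siControl replicate 1, 2 or 3 or siPOLR3A replicate 1. The risers were IPO13 at 0.20, a call that was lost when the trend with GC content and length was removed, and IPO9, a carrier of core histones, at 0.16. TNPO1, TNPO2 and IPO11 did not pass the test, with changes of −0.02, 0.04 and 0.03.

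The importin alpha adaptors, which link cargo with a classical nuclear localization signal to KPNB1, moved the other way: 5 of 6 rose and none fell. KPNA5 had the largest change, from 65.7, 64.6 and 63.3 CPM to 87.5, 82.4 and 91.8 CPM, with no overlap and a log2 fold change of 0.44 (SE 0.04, edgeR adjusted p 2.98e-07). With neighbouring transcript rows included this change was 0.09. KPNA6 rose by 0.25, KPNA4 by 0.21, KPNA2 by 0.18 and KPNA1 by 0.14. KPNA4 lost its call when neighbouring rows were included (0.07, edgeR adjusted p 0.052), and KPNA3 did not pass the test at 0.04. In summed TPM the adaptors went from 478 ± 14.7 (SD, n = 3) to 543 ± 6.85, while the importins of the beta family went from 843 ± 24.7 to 677 ± 13.02.

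Of the 7 exportins, 3 fell and 3 rose. XPO1 (chromosome 2, 61477849 to 61538626, minus strand), the main exportin for proteins with a leucine-rich export signal, had 690.4, 719.8 and 712 CPM in siControl and 439, 459 and 466 CPM in siPOLR3A. The change was −0.64 (SE 0.03, edgeR adjusted p 1.13e-10) and was −0.53 with neighbouring rows included. XPOT (chromosome 12, 64404350 to 64451127, plus strand), the exportin of tRNA, followed with 535, 519.8 and 534 CPM against 416, 412 and 413 CPM. Its groups did not overlap, and it fell by 0.36 on the log2 scale (SE 0.02, edgeR adjusted p 5.68e-09), or by 21.9%. XPO7 fell by 0.12, which was not called when scaled by the upper quartile or total counts or on TPM. XPO6, which exports actin with profilin, rose by 0.27, XPO4 by 0.15 and XPO5, the exportin of microRNA precursors, by 0.12. CSE1L did not pass the test at −0.02. XPOT and XPO5, which both carry RNA directly, were called in opposite directions.

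In the Ran cycle 4 of 6 genes fell and 1 rose. RCC1 (chromosome 1, 28505943 to 28539300, plus strand) had 77.1, 69.7 and 76.0 CPM in siControl and 38.8, 39.7 and 37.7 CPM in siPOLR3A. It fell by 0.94 (SE 0.04, edgeR adjusted p 2.11e-10). RANBP2 (chromosome 2, 108719481 to 108785811, plus strand), the large protein of the cytoplasmic filaments, was at 538, 486 and 481 CPM and then at 256, 269 and 274 CPM, a change of −0.91 (SE 0.05, edgeR adjusted p 5.74e-06). Per transcript length the fall of RCC1 was smaller, from 54.8 ± 3.18 to 37.3 ± 1.01 TPM and 0.55 on log2 TPM, whereas RANBP2 went from 50.1 ± 4.64 to 26.4 ± 1.83 TPM. RANBP1 and RAN changed far less, by −0.09 each, and neither was called when scaled by the upper quartile or by total counts. The sign for RAN depended on the scale, with a change of 0.02 on log2 TPM. RANGAP1, the GTPase activator, rose by 0.17 (edgeR adjusted p 2.04e-05), from 228 ± 1.56 to 257 ± 5.21 CPM, a call that was lost when the trend with GC content and length was removed. NUTF2, which returns RAN to the nucleus, did not pass the test.

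The 22 nucleoporins split 11 higher and 6 lower. NUP54 (chromosome 4, 76114659 to 76148515, minus strand) had the largest fall of these 22. It had 80.3, 83.4 and 82.9 CPM in siControl and 39.5, 37.6 and 37.6 CPM in siPOLR3A, a log2 fold change of −1.10 (SE 0.03, edgeR adjusted p 4.83e-12). RANBP2 of the cytoplasmic filaments, counted here with the Ran cycle, fell by 0.91, and NDC1, a membrane nucleoporin of the wider list below, by 0.68. NUP62 (chromosome 19, 49906825 to 49929763, minus strand), which forms the channel complex with NUP54 and NUP58, had the largest rise of all members: 84.8, 86.4 and 84.9 CPM against 115, 118 and 123 CPM, or 0.47 (SE 0.03, edgeR adjusted p 8.56e-09). The rise of NUP62 was spread over its coding transcripts: NUP62-201 went from 5.06 ± 0.29 to 10.9 ± 0.37 TPM, NUP62-208 from 4.73 ± 0.36 to 8.75 ± 0.28 TPM, and the most abundant, NUP62-202, from 21.6 ± 0.80 to 25.5 ± 0.56 TPM. NUP58 rose by 0.09 (edgeR adjusted p 0.0141), a call lost on TPM and without siControl replicate 2 or siPOLR3A replicate 2 or 3. Of the 3 subunits of this complex, NUP54 and NUP62 were thus called in opposite directions under all alternatives. NUP98 did not pass the test at −0.02.

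In the other nucleoporin classes, which leave out RANBP2, changes were smaller. NUP50, a basket protein that helps release importin cargo, fell from 240, 241 and 242 CPM to 197, 195 and 194 CPM, a change of −0.30 (SE 0.02, edgeR adjusted p 4.43e-08). NUP153, which anchors the basket, rose from 258, 258 and 262 CPM to 300.1, 306 and 300 CPM, a change of 0.22 (SE 0.02, edgeR adjusted p 1.18e-06), and TPR, the basket filament, fell by 0.11. In the inner ring 4 of 5 rose, NUP35 most at 0.30 (edgeR adjusted p 5.18e-05), then NUP155, NUP205 and NUP93 between 0.11 and 0.16, and NUP188 did not pass the test at −0.06. Outer ring genes went both ways: NUP43, NUP160 and NUP107 fell by 0.22, 0.18 and 0.07, NUP85 and NUP133 rose by 0.20 and 0.06, and NUP37 did not pass the test. The calls of NUP107 and NUP133 were lost without siControl replicate 2 or 3 or siPOLR3A replicate 1 or 2. Of the membrane proteins NUP210 rose by 0.19 and POM121 did not pass the test. At the cytoplasmic face NUP214 rose by 0.27, or 0.15 with neighbouring rows.

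NUP88, the partner of NUP214, had the widest spread. Its siPOLR3A libraries stood at 45.3, 21.1 and 31.2 CPM against 49.1, 42.1 and 43.1 CPM in siControl, overlapping groups, and a change of −0.46 (SE 0.31) was not called. Without siPOLR3A replicate 1 the change was −0.78, and without replicate 2 it was −0.22. With neighbouring rows included it was −0.29 and was called (edgeR adjusted p 1.34e-08). Most of the matched signal of NUP88 lay in rows annotated with a retained intron, at 30.5 ± 2.49 TPM in siControl and 26.7 ± 4.59 in siPOLR3A. Its matched coding rows held 7.89 ± 0.76 TPM in siControl and 3.235 ± 1.61 in siPOLR3A.

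**Figure D2:**
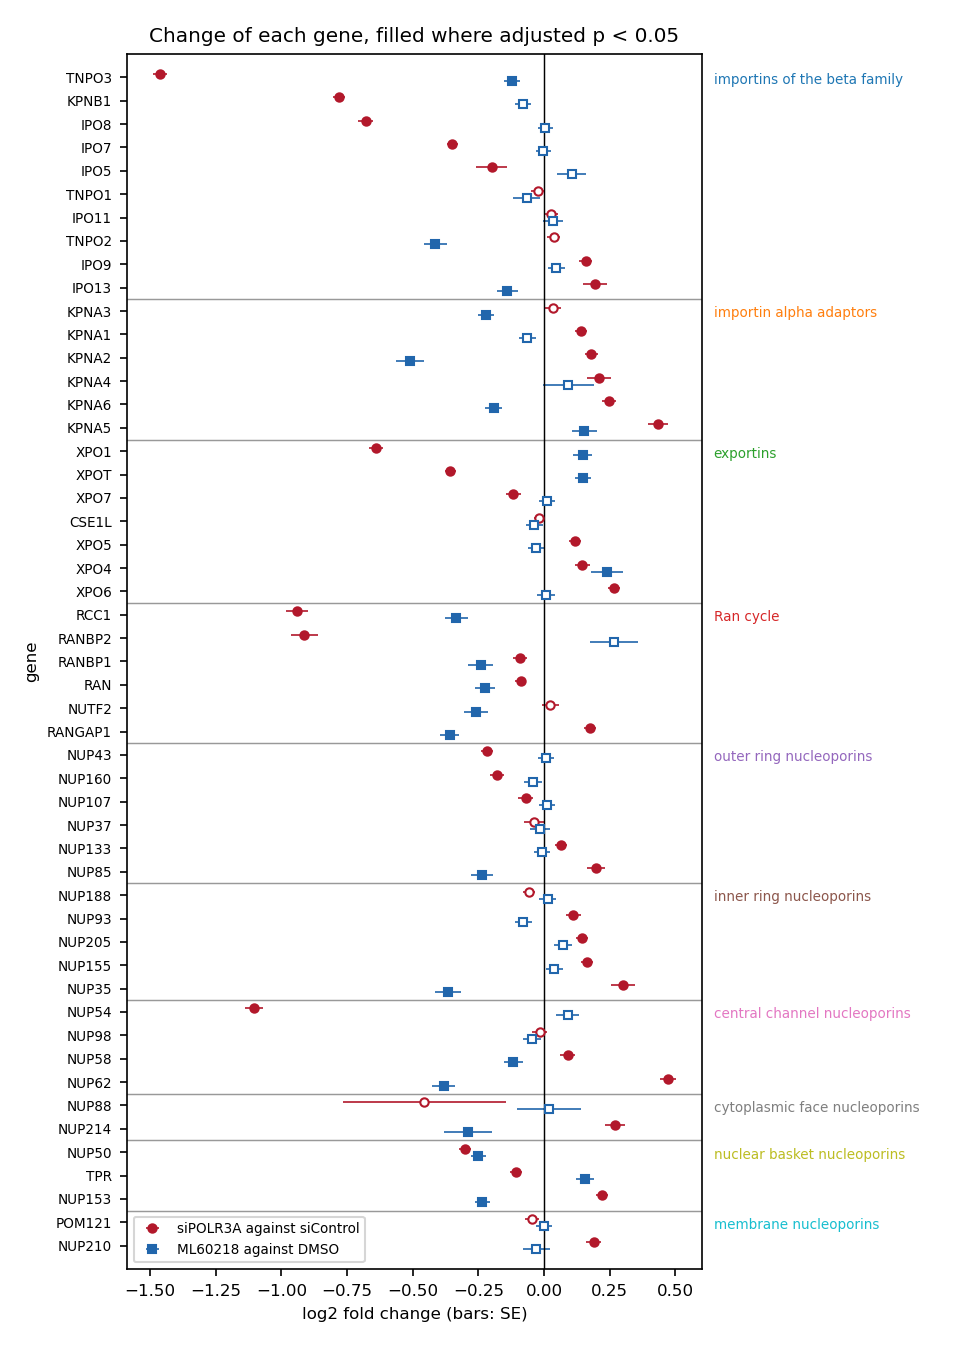
The log2 fold change of each gene (horizontal axis, bars are SE) in siPOLR3A against siControl (red circles) and in ML60218 against DMSO (blue squares), grouped by role class; filled symbols passed the test. Red points reach from −1.46 for TNPO3 to 0.47 for NUP62, and blue points from −0.51 for KPNA2 to 0.27 for RANBP2.

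Short stretches of the 3′ UTRs of 5 of the 7 members that fell by 0.5 or more are shown because they hold the letters GAGGGA. An earlier examination of these same libraries had drawn attention to these letters and to GACGTA, so their frequency here is a description and no independent support. Sequences are 30 bases of GENCODE 29 transcripts on GRCh38, written 5′ to 3′ on the strand of the gene, with the 6 letters in capitals.

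TNPO3 copy 1, chr7:128955197-128955226, minus strand: gtttgggggtgtGAGGGAaaatcagcgcgg
TNPO3 copy 2, chr7:128954433-128954462, minus strand: gagagaaaaaaaGAGGGAgggtgtgtggag
TNPO3 copy 3, chr7:128954317-128954346, minus strand: ggtgaggccgaaGAGGGAagcccaaagcag
NUP54, chr4:76115265-76115294, minus strand: accgaccacatgGAGGGAaaaagaaaacaa
RCC1 copy 1, chr1:28538807-28538836, plus strand: aggtgggggattGAGGGAgggacagagtgt
RCC1 copy 3, chr1:28538924-28538953, plus strand: taaaatattttgGAGGGAgaacaaaatctt
RANBP2, chr2:108785202-108785231, plus strand: gtcaaaagagggGAGGGAtgttgtgcgagt
KPNB1, chr17:47682769-47682798, plus strand: ttgggggaggagGAGGGActgggttcagct

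Copy 2 of RCC1 overlaps copy 1, and all sites lie in the 3′ UTR. The sense strand of the 3′ UTR was searched in 1 coding transcript for each gene. GAGGGA was present in 5 of 7 members that fell by 0.5 or more, in 2 of 11 that fell less (XPOT and IPO7, 1 copy each), in 4 of 11 that were not called and in 6 of 22 that rose. IPO8 and XPO1 held none in this window. In all it was in 33.3% of the 51 members, against 33.0% of 14190 3′ UTRs scanned and 56.7% of those of all genes that fell by 0.5 or more. As the reverse complement it was in 33.3% of the members and in 35.2% of all. The UTR of TNPO3 has 1237 bases, and 35.8% of UTRs of similar length held the letters, compared with 56.0% for the longer UTR of KPNB1. For NUP54, RCC1, RANBP2, IPO8 and XPO1 this share was 25.3%, 30.4%, 45.2%, 45.25% and 30.3%. The median UTR had 1303 bases among all genes that fell by 0.5 or more and 959.5 among all scanned. The part of UTR length in these shares was not tested. GACGTA was in 3.66% of all UTRs and in 4 members, 3 of them among the risers (KPNA5, IPO9 and NUP133) and the fourth RANBP2. A match shows only that the letters are there.

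The table resolves transcripts, and for several members the fall was not shared by all of them. For TNPO3 the transcript TNPO3-201, which held most of the signal, went from 45.4 ± 1.66 to 15.9 ± 0.58 TPM (SD, n = 3), and TNPO3-205 was at 1.23 and then 1.29 TPM. For RCC1 the transcript RCC1-202 dropped from 17.0 ± 2.15 to 2.12 ± 0.43 TPM, whereas the shorter RCC1-207 was at 21.3 ± 2.13 and then 21.7 ± 1.92 TPM. The coding transcripts of NUP54 together kept 34.7% of their siControl level, with 34.8, 34.4 and 35.7 TPM in siControl and 11.5, 12.6 and 12.3 TPM in siPOLR3A. Transcripts of the same gene annotated with a retained intron, a class that usually stays in the nucleus, measured 7.77, 6.49 and 7.24 TPM and then 7.94, 5.76 and 7.70 TPM, or 99.5%, in groups that overlap.

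This contrast was examined in the 13 members that fell and whose intron-retaining transcripts summed to at least 2 TPM in siControl, a choice made after the values had been seen. Intron-retaining transcripts kept a larger share of their control level than coding transcripts in 9 of the 13 and a smaller one in 4, with medians of 96.1% and 80.0%. Genes picked for a lower sum have low coding transcripts by that choice. Among the 13 members with as much intron-retaining signal that were not called lower, intron-retaining transcripts were at the larger share in 8 and at the smaller in 5, with medians of 112% and 107%. XPOT was among the 9: its coding transcripts kept 78.5% and its intron-retaining ones 96.1% (26.9 ± 1.46 and 25.9 ± 2.21 TPM). KPNB1 kept 57.2% and 82.0%, and XPO1 kept 65.0% of coding transcripts while its scarce intron-retaining ones stood at 182%, with 2.04 ± 0.51 and then 3.72 ± 1.37 TPM. RANBP2 went the other way with 53.8% and 33.3%, on an intron-retaining level of only 2.83 TPM, as did NUP107 with 96.2% and 62.2%. Transcript estimates divide reads that several rows share, so these values carry more error than gene sums, and no test was made.

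**Figure D3:**
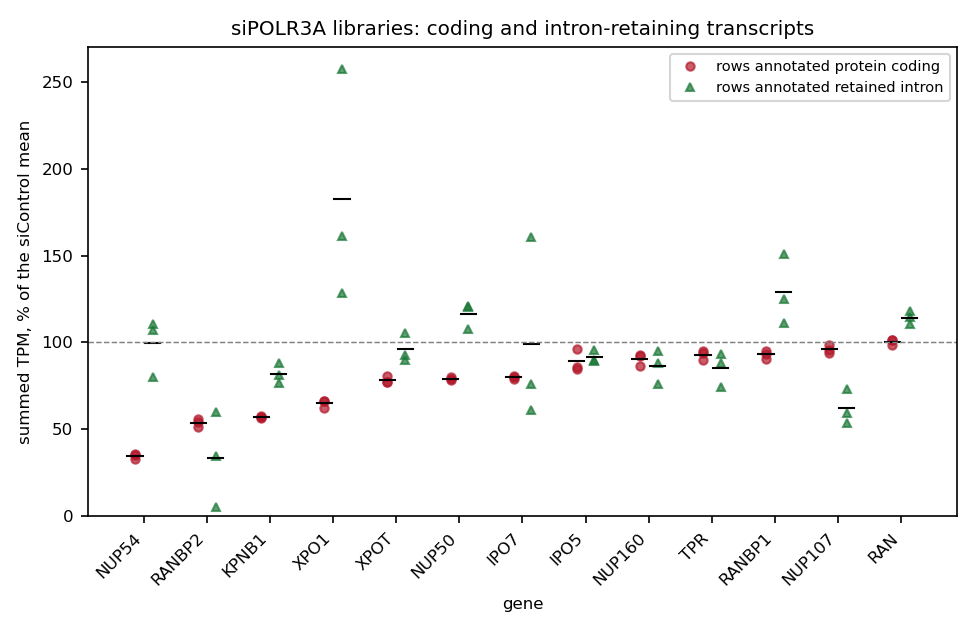
Summed TPM of coding (red circles) and intron-retaining (green triangles) transcripts in each siPOLR3A library, as a percentage of the siControl mean, for the 13 genes that fell and had at least 2 TPM of intron-retaining transcripts; black bars are means. Coding transcripts of NUP54 lie close together around a mean of 34.7%, while its intron-retaining ones scatter around a mean of 99.5%.

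The second comparison asked which members differed after 4 hours of ML60218. Of the 51 members, all tested among 15461 genes, 5 were called higher and 18 lower, against 18.1% and 20.9% of all genes tested. Changes were smaller than after the siRNA, from −0.51 to 0.27, with a median of −0.03 against 0.01 for all genes. The 18 falls were 7 of the 22 nucleoporins, 5 of the 6 Ran cycle genes, 3 of the 6 adaptors and 3 of the 10 beta importins, and 3 of the 5 rises were exportins. The split moved with the scaling: 8 higher and 15 lower when scaled by the upper quartile, 9 and 14 by total counts, 7 and 17 with a transcript length offset, 7 and 15 on TPM after TMM scaling, 10 and 5 on unscaled TPM, and 0 and 20 with the trend in GC content and length removed. Unscaled TPM moved the median of all genes by 0.12, so on that scale a value near 0.12 marks the typical gene. Across the 51 members, Spearman's rho between the change and GC content was −0.54, against −0.17 across 15451 genes; genes are not independent replicates. RANGAP1 (60.1% GC), NUP62 (57.1%) and TNPO2 (57.0%) were among the fallers, while the risers KPNA5 (34.4%), XPO4 (37.8%), XPO1 (39.6%), TPR (40.1%) and XPOT (40.9%) had low GC content. KPNA2 (46.2%), NUP50 (43.1%), NUP153 (42.1%), NUP58 (41.85%), KPNA3 (40.3%) and NUP35 (40.0%) fell with less GC than those fallers. NUP210 (58.35%) and POM121 (57.7%) lay in the GC range of those fallers and were not called.

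Of the 6 adaptors 3 were called lower and 1 higher. KPNA2 (chromosome 17, 68035519 to 68046842, plus strand) had the largest fall of all 51 members, from 522, 522 and 518 CPM in DMSO to 393, 370.5 and 334 CPM in ML60218. The DMSO libraries were nearly equal and the ML60218 libraries spread over a wider range below them, with a log2 fold change of −0.51 (SE 0.05, edgeR adjusted p 0.000283). KPNA3 fell by 0.22 and KPNA6 by 0.19. KPNA5 was called higher by 0.15 (edgeR adjusted p 0.0265), but with neighbouring rows included its change was −0.04, and without DMSO replicate 1, 2 or 3 or ML60218 replicate 3 it was not called. KPNA1 and KPNA4 did not pass the test.

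Of the beta importins, 3 of 10 fell. TNPO2 (chromosome 19, 12699194 to 12724011, minus strand), a close relative of TNPO1 that imports RNA-binding proteins, had 204, 200.6 and 202 CPM in DMSO and 163, 148 and 145 CPM in ML60218, a change of −0.41 (SE 0.04, edgeR adjusted p 0.000221). TNPO1 was at −0.07 and did not pass the test, nor did KPNB1 (−0.08, edgeR adjusted p 0.065), whose groups stood apart. IPO7, IPO8, IPO9, IPO11 and IPO5 did not pass the test either, with IPO5 the highest at 0.105. IPO13 fell by 0.14, a call lost without DMSO replicate 1, 2 or 3. TNPO3 was at 171, 168 and 167 CPM and then at 152, 157 and 157 CPM, groups that did not overlap, and fell by 0.12 (SE 0.03, edgeR adjusted p 0.0108). That call was lost without DMSO replicate 1 (−0.11, edgeR adjusted p 0.0582) and with total counts, and the change ranged from −0.13 to 0.01 over the alternatives, with the sign turned on unscaled TPM alone.

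The exportins were the only class with rises and no falls, 3 of 7. Their summed level went from 811 ± 20.7 to 958 ± 75.7 TPM (SD, n = 3), unscaled, while that of the adaptors went from 512 ± 16.4 to 436 ± 3.39 TPM. KPNA2 alone went from 356 ± 12.4 to 274 ± 9.37 TPM. Of the other adaptors, KPNA1, KPNA4 and KPNA5 had higher means in ML60218, and KPNA3 and KPNA6 lower ones. On this scale the beta importins, with no called rise, also went up, from 892 ± 29.7 to 958 ± 60.2 TPM. The sum was higher as well for every nucleoporin class but the cytoplasmic face, and lower for the Ran cycle. XPOT had 502, 489 and 493 CPM in DMSO and 539, 558 and 546 CPM in ML60218, with no overlap. The log2 fold change was 0.15 (SE 0.03, edgeR adjusted p 0.00391), a rise of 10.8%. XPO1 rose by 0.15 as well, from 639 ± 6.39 to 708 ± 29.3 CPM, a call lost without DMSO replicate 1, and XPO4, an exportin of translation factor eIF5A, by 0.24 (edgeR adjusted p 0.0155). The call for XPO4 was lost without DMSO replicate 3 or ML60218 replicate 2. With the trend in GC content and length removed, XPOT (0.08), XPO1 (0.10) and XPO4 (0.11) were not called. XPO5, XPO6, XPO7 and CSE1L were between −0.04 and 0.01 and did not pass the test.

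Transcripts of XPOT did not move in proportion. Its coding transcripts went from 106 ± 3.16 to 127 ± 6.70 TPM, 120% of DMSO, and its intron-retaining ones from 17.3, 17.0 and 17.4 TPM to 28.9, 29.5 and 37.5 TPM, 185% of DMSO. All ML60218 libraries lay above all DMSO libraries for the intron-retaining transcripts, of which XPOT-206 held most, 15.7 and then 27.9 TPM. Among the 24 members with at least 2 TPM of intron-retaining transcripts in DMSO, such transcripts stood at a larger percentage of DMSO than coding ones in 15 and at a smaller one in 9. The groups did not overlap upward in 8 (XPOT, XPO6, NUP50, NUP107, NUP188, NUP98, IPO5 and TPR) and downward in 3 (KPNA2, NUP85 and RAN). These are unscaled TPM, on which the typical gene also lay higher. The intron-retaining transcripts of all genes were not counted in this way, so whether these counts are particular to the members was not tested. For TMM-scaled gene CPM, a different measure, the groups did not overlap in either direction in 8020 of the 15461 genes tested.

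XPO6 showed the largest such percentage, and its intron-retaining transcripts moved apart from the coding ones in both experiments. They had 12.6, 12.7 and 11.3 TPM in siControl and 7.67, 8.61 and 7.36 TPM in siPOLR3A, 64.6% of the control level, while the coding transcripts rose to 124%. In the other experiment they had 6.48, 8.35 and 4.35 TPM in DMSO and 12.3, 12.3 and 19.2 TPM in ML60218, or 229%, beside 112% for the coding transcripts. The groups of the intron-retaining transcripts did not overlap in either experiment, whereas those of the coding transcripts overlapped with ML60218. The gene sum of XPO6, which the coding transcripts dominate, was called higher after the siRNA and did not pass the test with ML60218.

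In the Ran cycle 5 of 6 genes fell and none rose. RANGAP1 had 274, 277 and 278 CPM in DMSO and 224, 218 and 205 CPM in ML60218, a change of −0.36 (SE 0.04, edgeR adjusted p 0.000194). RCC1 followed at −0.33, NUTF2 at −0.26, RANBP1 at −0.24 and RAN itself at −0.22, from 708, 713 and 714 CPM to 619.9, 630.2 and 577 CPM. All 5 had the groups apart. On unscaled TPM, RCC1, NUTF2, RANBP1 and RAN were not called. RANBP2 had the largest positive value of any member, 0.27 (SE 0.09, edgeR adjusted p 0.0632), from 394, 355 and 331 CPM to 398, 423 and 479 CPM, and was not called. Its groups did not overlap, and it passed the test without DMSO replicate 1 or ML60218 replicate 1 and with DESeq2.

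Of the 22 nucleoporins 7 fell and 1 rose. NUP62 had 96.7, 102 and 96.2 CPM in DMSO and 76.5, 78.3 and 71.8 CPM in ML60218, a change of −0.38 (SE 0.04, edgeR adjusted p 0.000275), and its channel partner NUP58 fell by 0.12. NUP58 lost its call without DMSO replicate 2 or 3 or ML60218 replicate 1, and its change was 0.04 on unscaled TPM. NUP35 of the inner ring fell by 0.37 (SE 0.05, edgeR adjusted p 0.000513), from 35.2 ± 0.63 to 27.3 ± 1.07 CPM. The other 4 genes of the inner ring lay between −0.08 and 0.07 and did not pass the test. In the outer ring NUP85 alone was called, at −0.23 (edgeR adjusted p 0.00227), and the other 5 lay between −0.04 and 0.01.

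At the basket NUP50 fell by 0.25 and NUP153 by 0.23, the latter from 304, 304 and 297 CPM to 256, 257 and 257 CPM, and TPR rose by 0.16 (edgeR adjusted p 0.00542), a call lost, at 0.03, with the trend in GC content and length removed. NUP214 fell by 0.29 (SE 0.09, edgeR adjusted p 0.0426), but was not called without DMSO replicate 1, 2 or 3 or ML60218 replicate 2 or with neighbouring rows. NUP54, so much lower after the siRNA, was at 0.09 and did not pass the test, and neither did NUP88, NUP98, NUP210 or POM121.

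**Figure D4:**
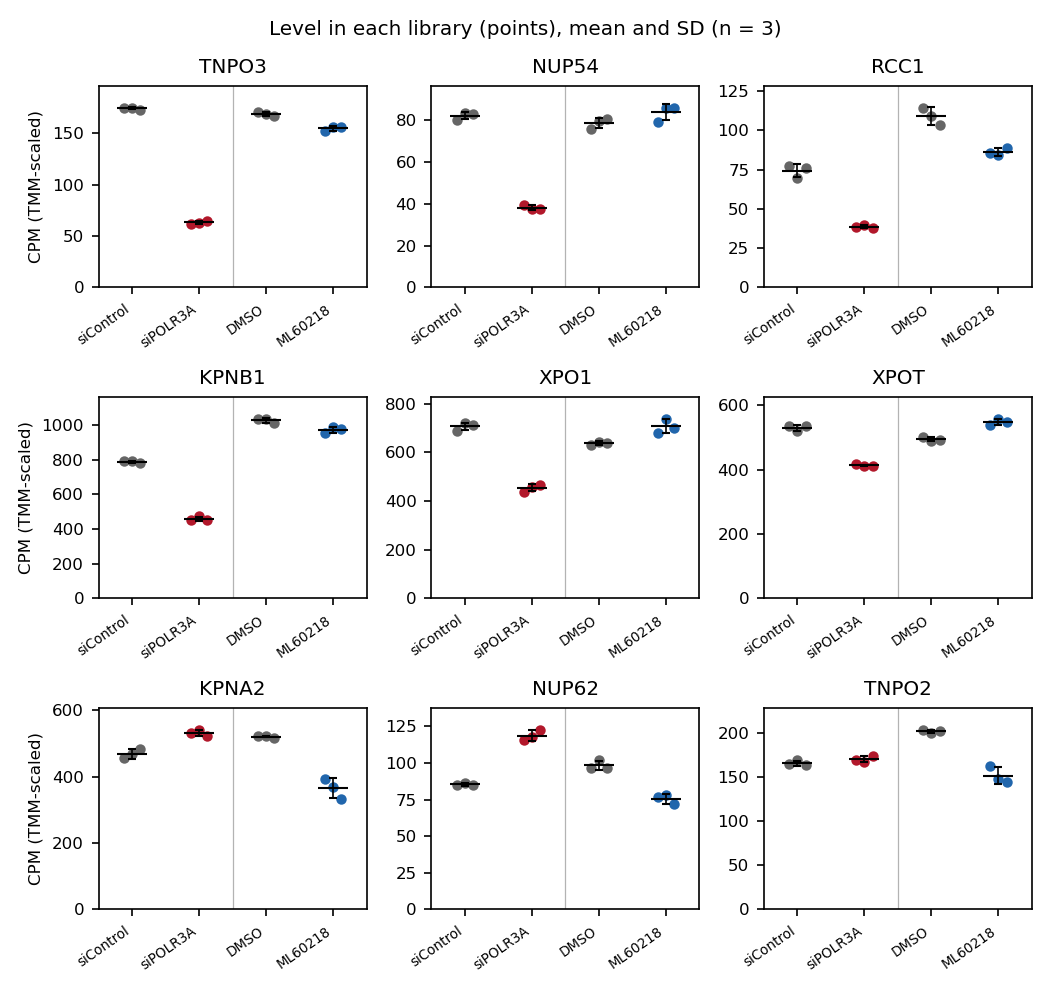
CPM in each library (points) with the mean and SD of 3 libraries (black) for 9 genes, the siRNA experiment on the left of each panel and the ML60218 experiment on the right; every vertical axis starts at 0. TNPO3, NUP54, RCC1, KPNB1, XPO1 and XPOT are lower in siPOLR3A, KPNA2, NUP62 and TNPO2 are lower in ML60218, and XPOT and XPO1 are slightly higher in ML60218.

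Whether the effects differ was tested with all 12 libraries in 1 model, where the ML60218 effect was subtracted from the siPOLR3A effect. The difference passed the test in 37 of 51 members and was above 0 in 23 and below 0 in 14, against 24.5% and 26.4% of 15780 genes tested. The most extreme by p on the negative side were TNPO3 with −1.34 (SE 0.04, edgeR adjusted p 1.15e-12), NUP54 with −1.19 (SE 0.06, edgeR adjusted p 1.7e-10) and KPNB1 with −0.70 (SE 0.04, edgeR adjusted p 7.88e-10). On the positive side they were NUP62 with 0.86 (SE 0.05, edgeR adjusted p 2.9e-09), NUP153 with 0.46 (SE 0.03, edgeR adjusted p 1.9e-08) and RANGAP1 with 0.54 (SE 0.04, edgeR adjusted p 4.57e-08). Time of exposure, 2 days against 4 hours, differed along with the kind of treatment, and only the siRNA experiment involved transfection. These parts cannot be told apart, and RNA polymerase III activity was not measured here.

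For XPOT the difference was −0.50 (SE 0.04, edgeR adjusted p 1.43e-08), since it fell after the siRNA and rose with the inhibitor. XPO1 had the same order, −0.78 (SE 0.05), and RCC1, lower in both comparisons, was lower by more after the siRNA, −0.60 (SE 0.07), or −0.33 with a transcript length offset. NUP50 changed by −0.30 and −0.25 in the 2 comparisons, and the difference of −0.05 (SE 0.03, edgeR adjusted p 0.27) did not pass the test.

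Of the members 20 were called in both comparisons, a share to be read against 26.2% of the 15165 genes tested in both. For 13 the directions were opposite, against 13.9% of all genes. Of these, 10 rose after the siRNA and fell with ML60218 (NUP62, NUP35, NUP214, KPNA6, NUP153, NUP85, IPO13, KPNA2, RANGAP1 and NUP58). The other 3 fell after the siRNA and rose with ML60218 (XPO1, XPOT and TPR). Lower in both were TNPO3, RCC1, NUP50, RANBP1 and RAN, and higher in both were KPNA5 and XPO4. Spearman's rho between the effects was −0.27 across the 51 members and −0.02 across 15165 genes, and the comparisons share no library.

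**Figure D5:**
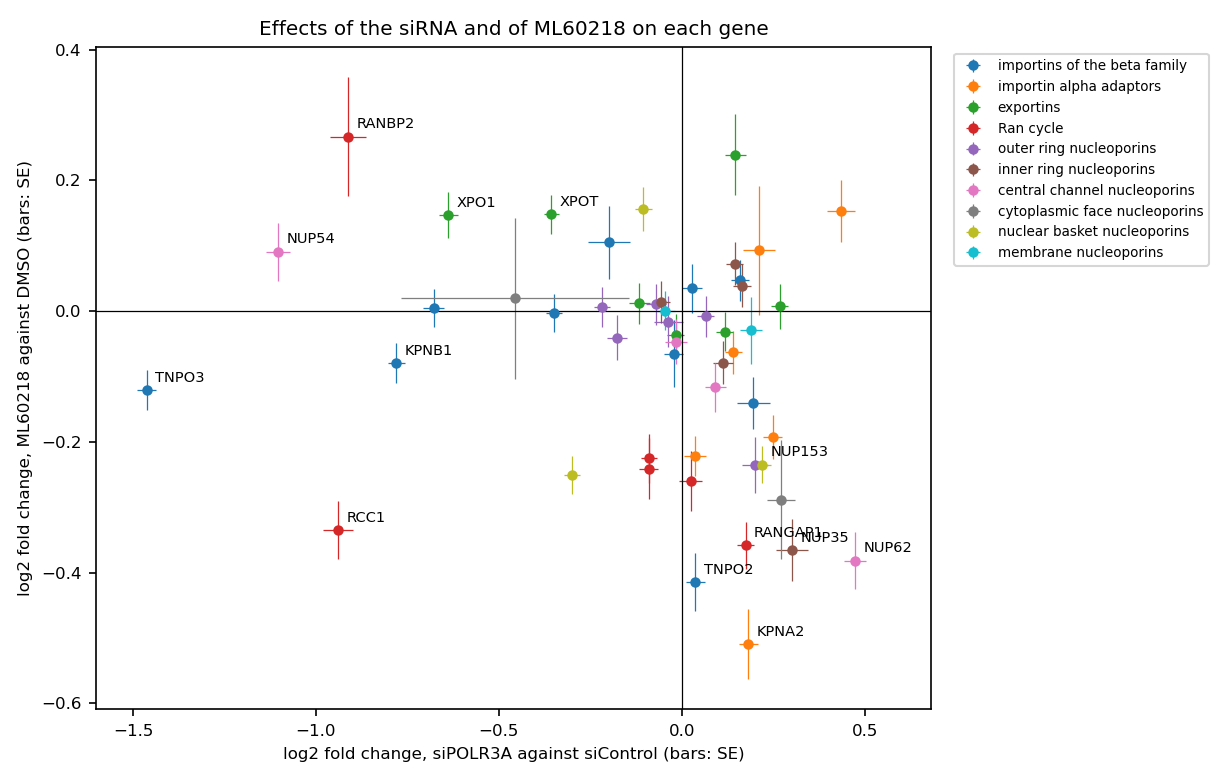
Each point is a gene, with its log2 fold change in siPOLR3A against siControl (horizontal) and in ML60218 against DMSO (vertical); bars are SE and colours are role classes. TNPO3, NUP54 and KPNB1 lie far to the left near 0 on the vertical axis, RCC1 is low on both, and NUP62, NUP35, RANGAP1 and KPNA2 lie to the lower right.

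A wider list of 50 genes of nuclear transport and mRNA export in the table, of which 48 were tested, gives the setting. After the siRNA 23 rose and 16 fell, or 47.9% and 33.3%, against 27.4% and 29.2% of all genes tested. A change of at least 0.5 was called in 8, 5 lower and 3 higher, against 1346 lower and 1194 higher of 15404 genes. SENP2, a SUMO protease found at the pore, fell by 1.246, SARNP, an adaptor of the mRNA export complex TREX, by 1.09, NCBP2, the small subunit of the nuclear cap-binding complex, by 0.92, MCM3AP, the scaffold of the TREX-2 complex, by 0.74 and NDC1, a membrane nucleoporin, by 0.68. DDX39A, an RNA helicase of mRNA export, rose by 0.78, RANGRF by 0.63 and RANBP10 by 0.54. With ML60218 7 rose and 17 fell, or 14.6% and 35.4%, against 18.1% and 20.9% of all genes tested. None of the 48 changed by 0.5 or more. By class, the siRNA called 6 of 14 other transport receptors and related factors higher and 5 lower. That class holds SENP2, RANGRF and RANBP10. Of 11 other nucleoporins 5 were called higher and 5 lower, and of 23 mRNA export factors 12 higher and 6 lower. These class counts are to be read against the same 27.4% and 29.2% of all genes.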

How the data were processed

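Strand-specific mRNA libraries from HEK293T were sequenced as read pairs, per the labels' protocols; bcl2fastq 2.20, Trim Galore, DESeq2 and the build hg38 are named in the submitters' processing notes. The deposited table gives, per the file headers, an estimated count and a TPM for each of 194142 transcripts in each library; program version, settings and transcript release are not given in the sources used here. Transcripts were matched without version to GENCODE 29, which placed 158359 (81.6%, holding 91.0% to 91.6% of reads) in 34318 genes; the other 8.37% to 8.97% of reads were left out. The design had assumed gene counts, so the estimated counts of a gene's transcripts were added up and the sums rounded.

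Both comparisons used edgeR 4.0.16, each with only the 6 libraries it concerns (filterByExpr, minimum count 10 and total 15; trimmed mean of M values; robust quasi-likelihood test, two-sided; Benjamini-Hochberg over all genes; called under 0.05), and the difference of effects on all 12. With 3 libraries against 3, an exact permutation test cannot go below p = 0.1. The SE is that of the log2 fold change. TPM sums are described without a test. Alternatives used DESeq2 1.42.0, limma 3.58.1 on log2 (TPM + 0.5), other scalings and filters, a replicate block, a transcript length offset, removal of the trend with GC content and length, inclusion of unmatched rows lying between rows of the same gene, and leaving out each library. Replicates of a group differed by more than sampling noise, with chi-square values per gene of 4.16 to 21.7.

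Members and gene lists were chosen with earlier results of these data known. The text names TNPO3 and XPOT, the called member of each class with the largest rise and the largest fall in each comparison, in the test of the difference the 3 members of smallest p above and below 0, and genes of the wider list called with a change of at least 0.5; other members named were chosen after their values were seen.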

Additional observations from a re-analysis of the deposited data

Results flagged for a closer look

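The effects of the siRNA and of ML60218 differed in the 6 members given here, the 3 of smallest p above 0 and the 3 of smallest p below 0 by the test of the difference itself in edgeR. TNPO3 differed by −1.34, NUP54 by −1.19 and KPNB1 by −0.70 on the log2 scale, each with a fall after siPOLR3A, while their changes with ML60218 were −0.12, 0.09 and −0.08. NUP62 differed by 0.86, RANGAP1 by 0.54 and NUP153 by 0.46, each with a rise after siPOLR3A and a fall with ML60218. In each of these 6 the difference kept its sign and its call under every alternative that was run, from 0.34 to 0.57 for NUP153, for example, and from −1.43 to −1.28 for TNPO3. The parts of time, of the kind of treatment and of transfection cannot be told apart.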

How the results depend on the processing

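Of the 22 members called higher and 18 called lower after siPOLR3A, 15 and 12 kept their call under every alternative, TNPO3, NUP54, RCC1, XPO1 and XPOT among them. With ML60218, 5 of 18 falls did so (KPNA2, TNPO2, NUP62, NUP35 and RANGAP1), and 0 of 5 rises. The number of members called higher with ML60218, 5, was 8 when scaled by the upper quartile, 9 by total counts, 10 on log2 TPM and 0 with the trend in GC content and length removed, and 3 to 9 with a library left out, 3 without DMSO replicate 3 and 9 without ML60218 replicate 1. The number called lower was 5 on log2 TPM. Of the wider list, 4 genes were called higher on TPM after TMM scaling, an alternative added after seeing that unscaled TPM moved the median, and 3 to 8 with a library left out, 4 without DMSO replicate 1 or 2 and 3 without DMSO replicate 3; 10 were called lower with total counts and 4 on log2 TPM. Of all genes, 3229 were called lower, 1919 by total counts and 716 on log2 TPM. For TNPO3 with ML60218 the change was −0.0500 with total counts, 0.0124 on log2 TPM and −0.115 on TMM-scaled TPM, none of them called, and −0.130 to −0.108 with a library left out. For XPOT it was 0.0842 with the trend removed and not called. KPNA5 turned to −0.0400 with neighbouring rows. NUP210, not called, turned to 0.00956 when scaled by the upper quartile, 0.0404 by total counts and 0.109 on log2 TPM, and ranged from −0.0634 to 0.0277 with a library left out, the latter without ML60218 replicate 3. The cause was not tested.

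The replicate numbers did not pair the libraries: same-numbered libraries had correlations of −0.24 to 0.11 in their deviations. With a replicate block, 22 members were called higher and 18 lower after siPOLR3A, and 4 and 18 with ML60218, where KPNA5 lost its call with a change of 0.15. The fall of TNPO3 was 1.46 with the block. Of all values recomputed under an alternative, 932 kept direction and side of the threshold or, for counts, stayed within 1.5 times, 32 were no longer past it, 6 changed sign and 15 were counts that moved by over 1.5 times. The unmatched transcript rows that were left out limit KPNA4, NUP88, KPNA5 and NUP214 most.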
